A study of Rattus norvegicus with 30 samples.

Results

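Tmem178b is a gene of rat chromosome 4, and its body was followed here between a pair of sites that the study places in introns of the gene, chr4:67694314-67950896 in the rat assembly Rn6, a span of 256.583 kb. Overlapping peaks of all 30 libraries were merged, and every merged region that met the span and had a called peak in at least 2 libraries was kept. This gave 42 regions, of 432103 such regions on the autosomes. Another 15 merged regions in the span had a peak in 1 library and were left out. The regions were thus chosen by their peak calls, and the outermost regions, chr4:67694314-67694711 and chr4:67950107-67950896, were chosen by the study for differences between these same animals, so their levels are given below as a description without a test.

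Tmem178b encodes a multi-pass membrane protein of the TMEM178 family. In mammalian neurons most CpG sites inside gene bodies are methylated, and this intragenic DNAm coexists with transcription, in contrast to DNAm at promoters, which goes with silencing. In meDIP-seq, an antibody against methylated cytosine pulls down sheared DNA, so that a stretch with many methylated CpGs gathers more fragments than its surroundings and is called as a peak, while a sparsely methylated or CpG-poor stretch is not.

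The libraries came from the prefrontal cortex (PFC) of Sprague-Dawley rats at postnatal day 22. Dams of the CON group ate a pelleted control diet freely, dams of the PAE group drank a liquid diet with 36% of its calories from ethanol (6.37% v/v), and dams of the pair-fed (PF) group received a liquid diet in which maltose-dextrin replaced the ethanol, rationed to what a PAE partner ate. The diets ran over gestation days 1 to 21. Each group held 10 animals, 5 labelled female and 5 labelled male, and each of the 15 dams gave a pair of littermates, 1 labelled female and 1 labelled male. PAE dams, like CON dams, could eat freely, but the paper states that the alcohol diet lowers food intake. PAE thus differed from CON in the ethanol, the form of the diet and the intake. From PF it differed in the ethanol and in the rationing of the PF dams. The PFC was taken as bulk tissue, so a change in the share of a cell type and a change of DNAm within cells cannot be told apart.

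The peak files state between 11548314 and 16555049 filtered fragments per library. Autosomal peaks numbered 151576 ± 26759 in CON, 143998 ± 19297 in PF and 135828 ± 26494 in PAE libraries (SD, n = 10 each). The X and Y chromosome peaks went with the labelled sex in 12 libraries (3 CON, 3 PF and 6 PAE) and against it in 18. In 7 libraries (2 labelled female, 5 labelled male) 2.65 to 3.14% of the peaks lay on X. In the other 23 (13 labelled female, 10 labelled male) this share was 0.774 to 1.15%, with 38 to 87 peaks on Y. The labels give 15 libraries of each sex, and exchanging names among these 30 libraries would not change that count. The libraries were spread over 5 sequencing chips, of which 1 held no PF and 1 held no PAE library. Whether the sex labels or the names of these libraries are at fault cannot be told apart here, and in the second case their prenatal group would be in doubt as well. Values by labelled sex are values of the labels, and the main values are also given without the 18 libraries or within chips where this matters.

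Along the span, called peaks were spread over 42 regions, and 8 of these held 52.8% of all calls. The measure was the normalized height, the highest pileup of fragments in a region per 1000000 filtered fragments. A library without a called peak was set to 0.438, the floor, which is the highest of the libraries' lowest called heights, so a value at the floor means that no peak was called, or a lower one, and not an absence of DNAm. Calling also depends on the local background, so an uncalled library can lie above the floor. Of the 1260 pairs of a region and a library, 345 (27.4%) held a called peak, and the 8 regions called in 17 or more libraries held 182 of these calls. No region was called in all 30 libraries and none in 14 to 16. Of the other regions, 11 were called in 6 to 13 libraries, 10 in 3 to 5 and 13 in 2. A share of 30.95% of the regions was called in only 2 libraries, against 18.5% of such regions over the autosomes. The calls in these 13 regions had heights of 0.393 to 0.944, and those in the 15 regions seen in 1 library, just outside the selection, had heights of 0.356 to 0.885.

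**Figure D1:**
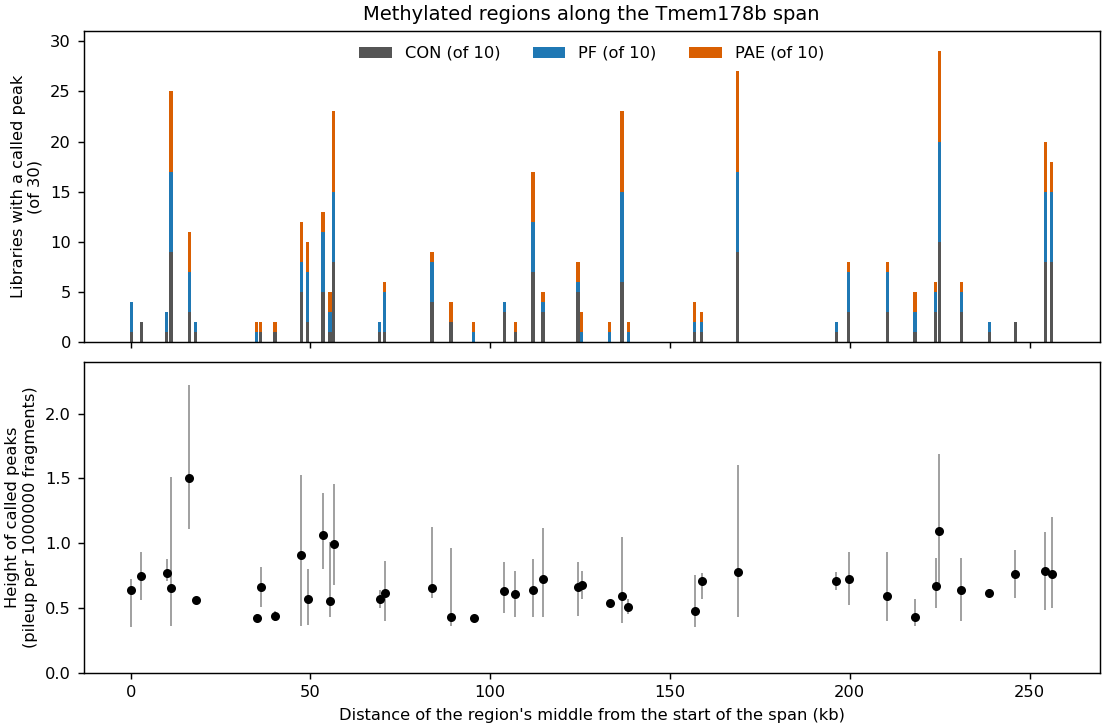
The upper panel plots, for each of the 42 regions, how many libraries had a called peak (bars stacked by CON, PF and PAE, 10 libraries each), and the lower panel plots the median (point) and the range (line) of the called normalized heights, both against the distance from the start of the span in kb. The regions called in 17 or more libraries stand apart from the rest in the upper panel, while the highest called heights, up to 2.22, lie at a region called in 11 libraries, 16.3 kb into the span.

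Lengths ran from 288 to 1181 bp around a median of 520 bp, and the regions together covered 9.46% of the span. Those called in 17 or more libraries were longer (median 835 bp) than those called in 2 (median 430 bp). Across the 42 regions, length and number of libraries had a Pearson's r of 0.59 and a Spearman's rho of 0.54, given as a description, since merging the peaks of more libraries by itself lengthens a region. Gaps between neighbouring regions had a median of 4.24 kb and reached from 204 bp to 26.8 kb. The widest gap followed the region at chr4:67862762-67863636, in a stretch from 154 to 205 kb into the span that held 5 regions, where the other stretches of equal length held 8 to 11.

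The span held 16.4 regions per 100 kb, the window of equal length before it 16.8, the window after it 10.5, chromosome 4 as a whole 15.5 and all autosomes 16.5, so that Tmem178b lay near the genome's average. Regions called in 20 or more libraries made up 14.3% of those in the span, against 14.0% and 22.2% in the windows before and after it and 15.1% over the autosomes. Regions called in at least 3 libraries, which could enter the test, made up 69.0% in the span, against 86.0% and 85.2% in the windows before and after it and 81.5% over the autosomes. These shares were not tested against each other.

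The region with the highest mean over all libraries was chr4:67918861-67919594, 225 kb into the span, called in 29 of 30 libraries. Its normalized height ran from 0.752 to 1.69 around a median of 1.05 in CON, from 0.690 to 1.51 around 1.06 in PF and from the floor to 1.57 around 1.15 in PAE animals. The group means were 1.16 ± 0.299 in CON, 1.06 ± 0.270 in PF and 1.06 ± 0.339 in PAE (SD, n = 10 each). The groups overlapped over nearly their whole ranges, and the PAE group held both the lowest library and a library among the highest. The fitted log2 difference between PAE and CON was -0.21, with a 95% confidence interval from -0.58 to 0.16.

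The next of the 5 highest, chr4:67750227-67751262, lay 56.4 kb into the span, was 1036 bp long and was called in 23 libraries. Heights reached 1.46 in CON (median 0.930), 1.17 in PF (median 0.978) and 1.23 in PAE animals (median 0.888), and each group had libraries at the floor. Means were 0.915 ± 0.338, 0.842 ± 0.291 and 0.865 ± 0.266 (SD, n = 10 each) in that order. The difference between PAE and CON was 0.15 on the log2 scale in the fit with the chip term, with an interval from -0.34 to 0.63, and its direction turned with no chip term (-0.053), as in the means.

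The region chr4:67862762-67863636, 169 kb into the span, was called in 27 libraries, among them all 10 PAE libraries. Its heights ran from the floor to 1.61 in CON (median 0.745), from the floor to 1.27 in PF (median 0.756), and in PAE animals from 0.517 to 1.02 (median 0.732). The medians nearly coincided, and the PAE values were the least spread (SD 0.200, against 0.359 in CON and 0.260 in PF). The fitted difference between PAE and CON was -0.10, with an interval from -0.50 to 0.30, and its direction turned with quantile normalization (0.10), with median ratio scaling (0.015), with a pseudocount of 0.1 in place of the floor (0.27) and without CON replicate 9 (0.0041).

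The tallest peaks of the gene body came from a region that most libraries did not call. At chr4:67710289-67710891, 603 bp long and 16.3 kb into the span, 11 libraries had a called peak, 3 of CON, 4 of PF and 4 of PAE. Called heights ran from 1.37 to 1.72 in CON, from 1.15 to 2.07 in PF and from 1.11 to 2.22 in PAE animals, and the other 19 libraries were at the floor. No called height lay below 1.11. The uncalled libraries were set to the floor, so their distance from the called ones was not measured. The authors' fold enrichment over local background, the ratio in the peak files, had a median of 8.28 in these peaks, against medians of 3.18 to 6.98 in the other regions. Of the 20 regions of the span called in 5 to 25 libraries, this was the 1 in which the lowest called height was over 1, and 3405 of 228954 such autosomal regions (1.49%) had the same feature. The fitted difference between PAE and CON was 0.12, with an interval from -0.75 to 0.98, and turned negative without PAE replicate 3 (-0.10), PAE replicate 1 (-0.040) or CON replicate 9 (-0.032).

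All called heights also lay well above the floor at chr4:67747665-67748016, a 352-bp region 53.5 kb into the span. This region was called in 5 CON, 6 PF and 2 PAE libraries, with called heights from 0.803 to 1.39 in CON, from 0.952 to 1.39 in PF and from 1.23 to 1.24 in PAE animals. The PAE group had the fewest calls, but both of its called heights lay inside the ranges of the other groups. The fitted differences were -0.17 between PAE and CON (95% interval -0.81 to 0.46), -0.52 between PAE and PF (-1.16 to 0.12) and 0.34 between PF and CON (-0.31 to 1.00). PAE was lower than PF within each of the 3 chips that held both groups and lower than CON within 3 of 4. Some of these chips held only 1 library of PF or of CON. Among the libraries that went with their labelled sex, 2 of 3 CON, 3 of 3 PF and 0 of 6 PAE libraries had the peak. Over the 15 dams, both littermates had the peak in 5, 1 of the pair in 3 and neither in 7. At the region 16.3 kb into the span, the same counts were 2, 7 and 6. Sharing within litters was not tested.

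**Figure D2:**
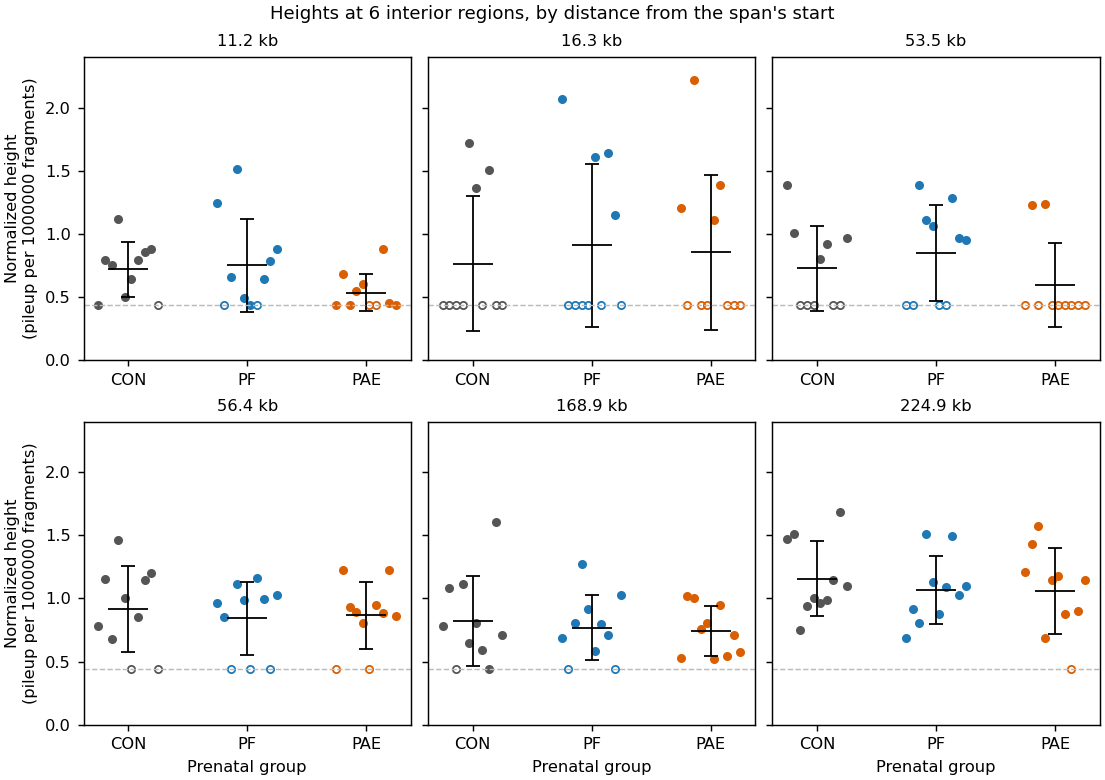
Each panel plots the normalized height (pileup scaled to 1000000 filtered fragments) of every library at 1 interior region, named by its distance from the start of the span, for CON, PF and PAE (10 libraries each). Filled points are called peaks, open points are libraries set to the floor (dashed line, 0.438), and the bar with whiskers is the mean ± SD. At 16.3 kb the called peaks lie between 1.11 and 2.22 and all other libraries are set to the floor, while at 224.9 kb 29 of 30 libraries are called and the groups overlap.

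The summits, the positions where a peak is highest, lay closer together in some regions than in others. Whether a region held 1 site or several was not tested. Over the 11 called libraries at chr4:67710289-67710891 all summits lay within 48 bp, and over the 13 at chr4:67747665-67748016 within 58 bp. At chr4:67750227-67751262 the 23 summits spread over 94 bp of a 1036-bp region. In contrast, the summits at the longest region, chr4:67704957-67706137, spread over 909 bp (interquartile range 182 bp), so libraries compared there did not all peak at the same bases. At the last end region, chr4:67950107-67950896, the interquartile range was 316 bp. Peaks were also shallow. The pileup at a summit was 5 to 31 fragments over all peaks of the 42 regions, 15 to 31 at chr4:67710289-67710891 and 5 to 19 at the longest region, so a single library's value carries a large counting error.

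The longest region, chr4:67704957-67706137, was 1181 bp long, lay 11.2 kb into the span and was called in 25 libraries (9 CON, 8 PF and 8 PAE). Heights ran from the floor to 1.12 in CON (median 0.771), to 1.51 in PF (median 0.649) and to 0.883 in PAE animals (median 0.444). The PAE median lay just over the floor, and 2 PF libraries stood above every CON and PAE library. The means were 0.721 ± 0.218 in CON, 0.753 ± 0.368 in PF and 0.536 ± 0.150 in PAE (SD, n = 10 each), so the groups overlapped. Set against PF, PAE had a log2 difference of -0.56 (SE 0.225), with an unadjusted p of 0.018 and an adjusted p of 0.99 in limma after Benjamini-Hochberg adjustment over all 352026 tested regions. The direction was the same within the 3 chips that held both groups, with differences of -0.17, -0.63 and -1.57. The last of these rested on 1 PF library, replicate 4, which had the region's highest value of 1.51. Without the 18 libraries that went against their labelled sex the difference was -0.55, with an unadjusted p of 0.13 in limma. With peaks required to cover 50% of the region it was -0.14 (unadjusted p 0.54), and with no chip term -0.40 (unadjusted p 0.087). The difference between PAE and CON was -0.32 (95% interval -0.78 to 0.14), and that between PF and CON was 0.24 (-0.23 to 0.72), which turned to -0.012 with no chip term and to -0.13 in the libraries that went with their labelled sex when fitted with no chip or sex term.

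The remaining interior region with an unadjusted p below 0.05 was chr4:67797928-67798450, 104 kb into the span, which rested on 4 called peaks. CON replicates 1, 2 and 4 had heights of 0.693, 0.576 and 0.858, PF replicate 2 had 0.459, and every PAE library was at the floor. PF was lower than CON by -0.21 on the log2 scale (SE 0.0836), with an unadjusted p of 0.016 and an adjusted p of 0.77 in limma over all tested regions. Of the 4 chips that held both groups, PF was lower than CON on 2 and higher on 1, with both at the floor on the remaining chip. The sequencing chip itself had an unadjusted p of 0.022 at this region (adjusted p 0.27 in limma). All 4 libraries with the peak were labelled female, and all 4 were among the libraries whose sex-chromosome peaks went against the label. The same held for 13 of the 15 libraries labelled female.

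Across the interior, without the end regions, 27 of the 40 regions were called in at least 3 libraries and were fitted, and no comparison of the prenatal groups gave a call at an FDR of 0.05. Between PAE and CON 0 of the 27 passed, where 0.000284% of all tested regions did, and 0 had an unadjusted p below 0.05, where 7.37% did. The smallest adjusted p in limma was 0.68. In this comparison 19 of the 27 differences were negative, with a median of -0.10, and 63.3% of all tested regions were negative, with a median of -0.054. Between PAE and PF 0 passed, as did 0% of all tested regions, and 1 had an unadjusted p below 0.05, the longest region, where 4.46% of all regions did (smallest adjusted p in limma 0.99). Of the 27 differences, 18 were negative, with a median of -0.052 (all regions 56.4% and -0.023). Between PF and CON 0 passed, again with 0% of all tested regions, and 1 had an unadjusted p below 0.05, the region at 104 kb, where 6.46% of all regions did (smallest adjusted p in limma 0.77). Here 14 differences were negative and 13 positive, with a median near 0 (all regions 57.6% negative, median -0.031). Both comparisons with CON share the CON libraries and both with PF share the PF libraries, so their values are not independent.

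**Figure D3:**
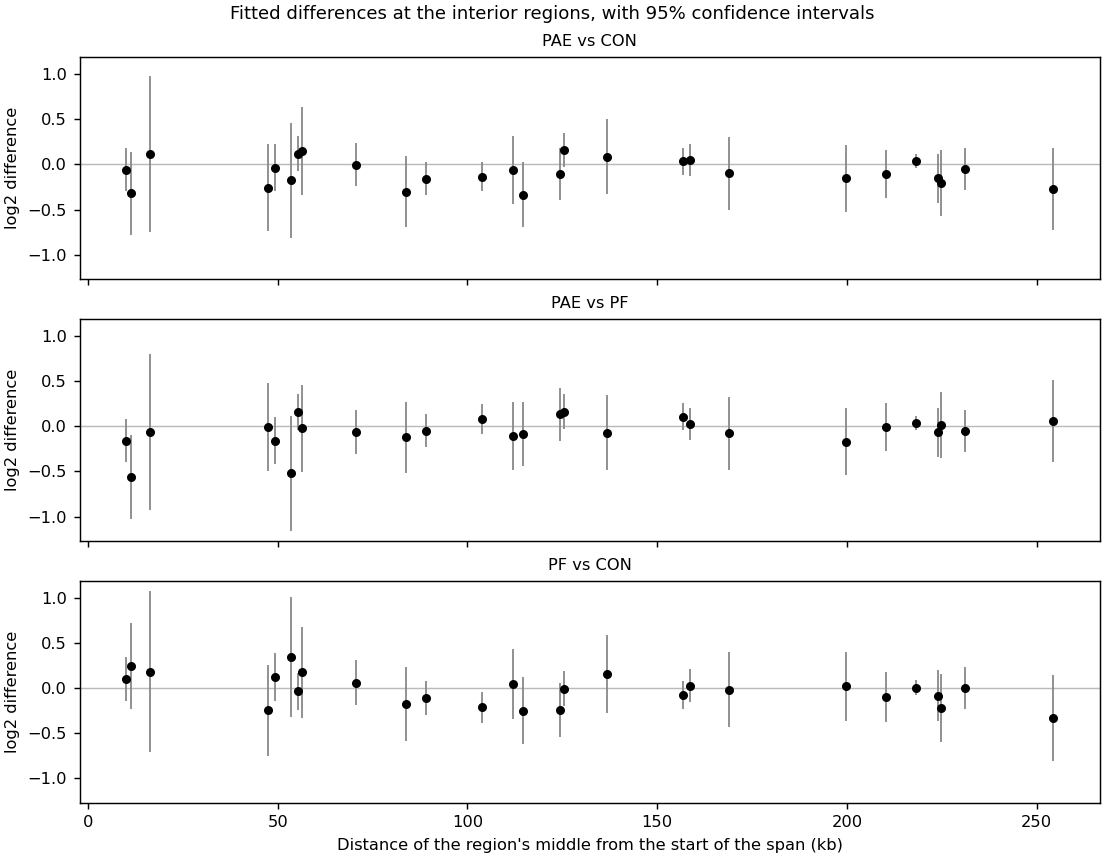
Fitted log2 differences in normalized height (y axis) at the 27 interior regions against their distance from the start of the span in kb, with 95% confidence intervals, for PAE vs CON, PAE vs PF and PF vs CON. All intervals for PAE vs CON include 0. The interval at 11.2 kb in PAE vs PF (-1.02 to -0.10) and that at 103.9 kb in PF vs CON (-0.38 to -0.04) lie below 0.

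Called and uncalled libraries were also counted. Fisher's exact test on libraries with and without a called peak, two-sided, had its smallest unadjusted p over the 27 regions at 0.21 for PAE vs CON, 0.17 for PAE vs PF and 0.14 for PF vs CON (n = 10 each), and 0 interior regions and 0 of all tested regions passed. The smallest p this exact test can give with 10 libraries a group is 1.1e-05, so no lone region could have passed the adjustment over all regions. Within the libraries labelled female and those labelled male, limma called 0 interior regions at an FDR of 0.05 and 0 at an unadjusted p below 0.05 in any of the 3 comparisons. Where every library of a labelled sex was at the floor, the difference was 0 beforehand and no call was possible. The region at 104 kb was such a case among those labelled male. Over all tested regions the unadjusted shares were 6.87% (PAE vs CON), 4.17% (PAE vs PF) and 5.9% (PF vs CON) in those labelled female and 4.6%, 3.54% and 3.58% in those labelled male, and at most 0.000284% passed the FDR. In the test of the difference between the labelled sexes, 0 interior regions passed the FDR in limma, and 1 had an unadjusted p below 0.05, for PAE vs CON, where 4.87% of all regions did (3.19% for PAE vs PF and 4.77% for PF vs CON, with 0 interior regions each). It was the region at 104 kb (interaction 0.40 on the log2 scale, SE 0.138, unadjusted p 0.0077, adjusted p 0.94 in limma). The sequencing chip called 0 interior regions at an FDR of 0.05, where 0.0321% of all regions passed, with 6 of 27 at an unadjusted p below 0.05, where 13.6% of all regions were, and a smallest adjusted p of 0.13 in limma.

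Called interior regions per library were fewest, on average, in the PAE group, but the groups overlapped. CON libraries held 118, PF libraries 112 and PAE libraries 93 of 400 possible calls each. A CON library thus had a mean of 11.8 interior regions called (SD 4.26), a PF library 11.2 (SD 3.77) and a PAE library 9.30 (SD 4.62), so that the PAE mean was 78.8% of the CON mean and the PF mean 94.9%. The same ratio of PAE to CON was 81.7% in the window before the span, 84.5% in the window after it and 89.9% over all autosomal regions called in at least 2 libraries. With the end regions, which the study chose for differences between these animals, the PAE mean was 75.6% of the CON mean. That whole span was also scaled to a library's peaks on the autosomes. It gave 8.16 ± 1.80 called regions per 100000 peaks in CON, 8.39 ± 2.31 in PF and 6.79 ± 2.46 in PAE (SD, n = 10 each). These scaled values thus hold the chosen end regions and do not describe the interior alone. The unscaled interior counts ranged from 6 to 19 in CON, 7 to 20 in PF and 4 to 18 in PAE libraries and overlapped. In the libraries that went with their labelled sex, the mean interior counts were 11, 10.3 and 9 in the same order. Within chips the order did not hold throughout. PAE libraries had fewer interior calls than CON on 2 chips (6 against 8.67, and 10 against 17) and more on 2 others (10.5 against 7, and 10 against 9). The first 2 chips held 3 and 2 CON libraries, and the 2 others held 1 CON library each.

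The calls are given next by how often a region was called. In the 7 interior regions called in 17 or more libraries, CON held 57, PF 54 and PAE 53 of 70 possible calls. In the 11 called in 6 to 13 libraries, CON held 37, PF 39 and PAE 21 of 110, and PAE had fewer calls than CON in 8 of the 11 and more in 2. PAE libraries held 21.6% of the calls in these 11 regions, and 30.6% of those in all autosomal regions called equally often, while for 17 to 29 libraries the shares were 32.3% in both. In the 9 called in 3 to 5 libraries the calls were 13, 11 and 12 of 90, and in the 13 called in 2 libraries they were 11, 8 and 7 of 130. PAE libraries held 33.3% of the calls in these 9 regions and 26.9% of those in these 13. In all autosomal regions called equally often the shares were 30.0% and 30.4%. The chips did not hold the groups evenly, and the mean number of regions called in the whole span went from 7.80 to 15.8 between chips. No test was made of these counts, because the regions were chosen by the same calls.

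**Figure D4:**
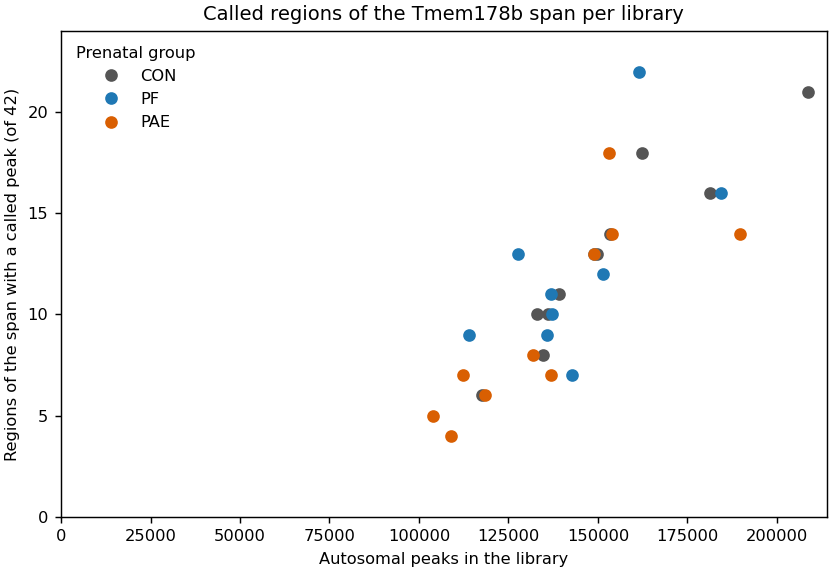
Each point is 1 library, coloured by prenatal group (10 each), with its number of autosomal peaks on the x axis and its number of called regions in the span, of 42, on the y axis. Counts in the span go from 4 to 22, and the 2 libraries with the fewest autosomal peaks have the fewest called regions in the span. The 3 groups overlap.

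By position, the stretch nearest the far end of the span held the widest gap between the groups. In the last 51.3 kb, the 8 interior regions held 31 CON, 28 PF and 19 PAE calls of 80 possible each. From the start of the span, the stretches before it held 25, 24 and 22 of 100, then 22, 25 and 17 of 80, 25, 20 and 21 of 90, and 15, 15 and 14 of 50, in the same order of groups. The choice of this stretch for mention followed from its values.

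The end regions themselves, chosen by the study on these animals, gave the following levels. At the first, chr4:67694314-67694711, 4 libraries had a peak. CON replicate 2 had a height of 0.648 and PF replicates 4 and 9 had 0.636 and 0.725, a further PF peak of 0.356 lay under the floor, and all 10 PAE libraries were at the floor. At the last, chr4:67950107-67950896, 8 CON, 7 PF and 3 PAE libraries had a peak. Heights ran from the floor to 1.20 in CON (median 0.656), to 0.966 in PF (median 0.685) and to 1.02 in PAE animals (median 0.438, the floor), with means of 0.746 ± 0.302, 0.689 ± 0.212 and 0.534 ± 0.193 (SD, n = 10 each). All 5 CON and all 5 PF libraries labelled male had the peak and 0 of the 5 PAE libraries labelled male did, while among those labelled female the calls were 3, 2 and 3. Among the libraries that went with their labelled sex, the calls were 3 of 3 in CON, 2 of 3 in PF and 0 of 6 in PAE.

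The inner neighbours of the end regions were compared for their position. The first of them, 2.95 kb into the span, was called in 2 libraries, both CON, with heights up to 0.935. The last, chr4:67948325-67949119, lay just before the end region and was called in 8 CON, 7 PF and 5 PAE libraries. Its heights ran from the floor to 0.944 in CON (median 0.748), to 0.950 in PF (median 0.646) and to 1.09 in PAE animals (median 0.551), with the highest library in the PAE group. The means were 0.721 ± 0.189, 0.658 ± 0.204 and 0.631 ± 0.230 (SD, n = 10 each). The fitted difference was -0.27 between PAE and CON (95% interval -0.73 to 0.18) and 0.057 between PAE and PF (-0.40 to 0.51). The direction of the second turned with no chip term (-0.077), in the libraries that went with their labelled sex (-0.050), with the pseudocount (-0.11) and without PF replicate 4 (-0.054), PAE replicate 9 (-0.029) or PAE replicate 2 (-0.021), and that of the first with peaks covering 50% of the region (0.0046).

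**Figure D5:**
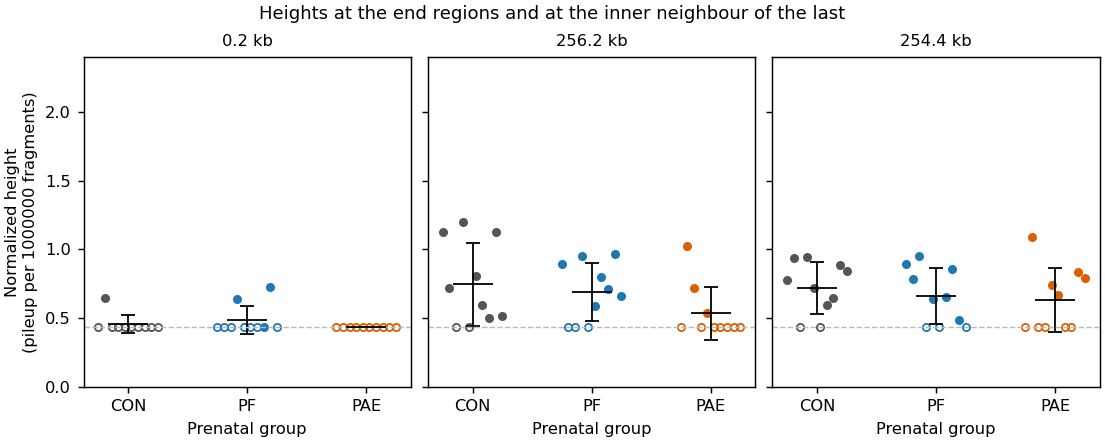
Normalized height (pileup scaled to 1000000 filtered fragments) of every library at the first end region (0.2 kb), the last end region (256.2 kb) and the inner neighbour of the last (254.4 kb), for CON, PF and PAE (10 libraries each). Filled points are called peaks, open points are libraries set to the floor of 0.438 and the bar with whiskers is the mean ± SD. At 256.2 kb 3 PAE libraries are above the floor, against 8 CON and 7 PF libraries, and at 254.4 kb the counts are 5, 8 and 7.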

How the data were processed

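The authors used BWA and the assembly Rn6 for alignment, discarded duplicates and reads that were unpaired or poorly mapped, and ran MACS2 (version 2.1.4 in the file headers) on the fragments of each library by itself, without a control and with a q-value limit of 0.05. The deposited signal of a peak is its pileup, the fragments stacked at its summit, not scaled for depth. The deposited −log10 q-value was used for a stricter peak threshold, and the deposited fold enrichment, a ratio to local background, only as a description.

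Peaks sharing 1 bp or more were merged across libraries. Heights were computed and set to a floor as stated above. The files hold pileups and no read counts, and coverage under the calling threshold is not in them. Log2 heights of the 352026 autosomal regions called in at least 3 libraries entered limma (3.58.1, under R 4.3.3) with a variance prior that followed the mean and terms for group, labelled sex and sequencing chip. The fit was also made within each labelled sex, and with an interaction of group and labelled sex. Adjusted p-values are Benjamini-Hochberg values over all 352026 regions. The fit was also run on simulated heights drawn without a floor and without chip or litter effects, so its behaviour on values at the floor was not tested. P-values measure the spread between animals, 2 of which came from each dam, and shared litters were taken up as a random effect in an alternative. Other alternatives changed the model terms, the floor, the scaling, the peak or region filter or the test, or left out libraries. Chip names came from the labels. Python 3.11.15 with pandas 2.3.3, numpy 2.4.6 and scipy 1.17.1 made the tables, and matplotlib 3.10.9 the figures.

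Regions named with values were the end regions, the 5 with the highest mean height, the longest, and interior ones with an unadjusted p below 0.05 in a comparison of the groups. The inner neighbours of the end regions were added after their values were seen. The regions, the span and these rules were chosen with earlier results of these data known. The sequence and annotation of Rn6 were not used here, so regions carry no sequence, CpG content or exon.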

Additional observations from a re-analysis of the deposited data

Results flagged for a closer look

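In 36 groups of 10 libraries, at the named regions and for the number of called regions per library, a library was looked for whose gap to the nearest other one took up more of the group's range than Dixon's 95% critical value for 10 samples, which chance gives in about 1 of 20 groups of values without a floor, a rate that does not hold where many values are at the floor. In 5 groups such a library was found. At chr4:67710289-67710891, PAE replicate 3 had a height of 2.22 and the next PAE library 1.39. At chr4:67950107-67950896, PAE replicate 2 had 1.02 and the next PAE library 0.715. At the first inner neighbour, 2.95 kb into the span, CON replicate 2 had 0.935 and the next CON library 0.562. At chr4:67797928-67798450, PF replicate 2 had 0.459 and all other PF libraries were at the floor of 0.438, and at chr4:67694314-67694711, CON replicate 2 had 0.648 with all other CON libraries at the floor. In the last 2 cases the gap is that between the single called peak and the floor.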

How the results depend on the processing

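No alternative called an interior region at an FDR of 0.05 in any of the 12 comparisons, with 249 counts recomputed, and the smallest adjusted p in limma was 0.19 (PF vs CON, chip effect removed before the fit). Only regions called in all 30 libraries could not be tried, since the span holds none. No paired analysis was possible because the labels give no replicate numbers shared between the groups.

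Most named differences kept their sign. At chr4:67750227-67751262, PAE vs CON became -0.053 with no chip term, -0.045 without the libraries that went against their labelled sex (no chip or sex term, an alternative added after seeing the data) and -0.071 with peaks covering 50% of the region. At chr4:67862762-67863636 it became 0.10 with quantile normalization, 0.27 with a pseudocount of 0.1 in place of the floor and 0.015 with median ratio scaling, and leaving out each library gave -0.18 to 0.0041. At chr4:67710289-67710891 leaving out each library gave -0.10 to 0.33. At chr4:67704957-67706137, PF vs CON became -0.012 with no chip term and -0.13 in the added alternative. At chr4:67948325-67949119, PAE vs CON became 0.0046 with peaks covering 50% of the region, and PAE vs PF became -0.077 with no chip term, -0.050 with only the libraries that went with their labelled sex and -0.11 with the pseudocount, and -0.054 to 0.22 with each library left out. The causes were not tested.

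The pseudocount moved the PAE vs CON median over all regions from -0.054 to -0.15. Quantile normalization moved this median to -0.0076 and median ratio scaling to -0.016. A region called in few libraries has most values at the floor, so differences there can be understated, and 13 of the 40 interior regions were fitted only in the alternative that took regions called in at least 2 libraries.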
